A study of Homo sapiens with 4 samples.

Results

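The transcripts of 10 cadherin genes were followed in 2 forms of SKOV3, a human ovarian carcinoma line in long use, one resistant to cisplatin and one wild-type. The genes are CDH1, CDH2, CDH3, CDH6, CDH11, CDH13, CDH16, CDH17, CDH18 and CDH23, taken by symbol from a deposited table of read counts that lists 65988 gene identifiers. All 10 had reads in at least 1 library, and all 10 passed the low-count filter. The members were chosen by family and selected on their difference in level between resistant and wild-type cells, so these differences are described here and not tested. A cadherin gene outside the list, such as CDH4, CDH24 or CDH26, can have reads too, and is described further on.

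SKOV3 CR, the cisplatin-resistant cells, had 2 libraries, and was set against SKOV3 WT, the wild-type, cisplatin-susceptible cells, with 2 libraries. Resistant cells had been derived from wild-type cells by 6 rounds of cisplatin over 5 months, each of 4 hours in a rising concentration and then 3 weeks without the drug. Resistant and wild-type cultures were harvested in log growth with no drug present. The libraries are described as biological replicates, and the labels do not say whether the resistant libraries come from separate selections, so p-values measure only the spread between these libraries. Polyadenylated RNA was sequenced, and levels are given as CPM, counts relative to library totals scaled by the trimmed mean of M values (TMM). A line grown as long without the drug was not analysed here.

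Cadherins are calcium-dependent adhesion proteins of the cell surface. In the classical members, an extracellular part binds cadherins on the neighbouring cell, and a cytoplasmic tail binds the catenins, which connect the junction to actin. E-cadherin (CDH1) marks epithelial junctions and N-cadherin (CDH2) is typical of neural and mesenchymal cells, and loss of the one with use of the other is a known feature of epithelial to mesenchymal transition in carcinomas. Type I (CDH1, CDH2, CDH3) and type II (CDH6, CDH11, CDH18) members share this plan, whereas CDH13 is held by a lipid anchor without a tail, CDH16 and CDH17 have a short tail without the catenin-binding part, and CDH23 is a long cadherin of the tip links of inner-ear hair cells.

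The library totals ran from 65259794 to 79592903 reads in resistant cells and from 43658695 to 53502349 reads in wild-type cells, so that 1 CPM stood for 66.6 to 83.1 reads in resistant cells and for 42.6 to 51.3 reads in wild-type cells. Of 18602 genes tested with edgeR's quasi-likelihood test, 45.3% were called at a Benjamini-Hochberg adjusted p under 0.05, with 22.1% higher and 23.2% lower in resistant cells. Of 10 ovarian carcinoma markers, all tested, 2 rose (the Wilms tumour gene, symbol WT1, and MSLN) and 6 fell. The marker list was checked against the labelled cell type: ERBB2, KRT8 and KRT18 fell, and their lowest level was 129.95 CPM, of KRT18 in resistant library 1. KRT19 and PAX8 were not called. KRT19 had 134 and 153 CPM in resistant cells and 135 and 153 CPM in wild-type cells. PAX8 had 5.04 and 4.27 CPM in resistant cells and 2.56 and 3.72 CPM in wild-type cells. EPCAM had 3.06 and 4.13 CPM in resistant libraries 1 and 2 and 30.9 and 32.3 CPM in wild-type libraries 1 and 2. KRT7 had 3.27 and 3.14 CPM in resistant cells and 332 and 399 CPM in wild-type cells, and MUC16 had 0.0300 and 0.0361 CPM in resistant cells and 1.81 and 2.12 CPM in wild-type cells. The calls of the Wilms tumour gene without resistant replicate 1 and of MSLN without wild-type replicate 1 were lost (edgeR adjusted p of 0.0563 and 0.133, the highest over all settings, of which the lowest were 0.00156 and 0.000187). Of 9 leukocyte markers 2 passed the filter, and the list summed to 1.26 to 1.67 CPM in resistant cells and to 0.540 to 1.66 CPM in wild-type cells. Endothelial markers summed to 2.24 to 2.84 CPM in resistant cells and to 11 to 13.1 CPM in wild-type cells, with 0 of 6 tested higher and 3 lower. Fibroblast markers summed to 56.3 to 64.4 CPM in resistant cells and to 28 to 37.6 CPM in wild-type cells, with 4 of 8 tested higher and 1 lower. The part of these shifts in the cadherin values was not tested, and in bulk RNA fewer cells of a type and less RNA per cell cannot be told apart.

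The RefSeq promoter table (GRCh38.p14) held windows for 3 of the 10 genes, CDH2, CDH18 and CDH23. They are shown because repressors of E-cadherin, described further on, bind E-boxes, and capitals mark the E-box letters CANNTG, which read the same on both strands. Each line gives the 250 bases before a transcript start, 5′ to 3′ on the gene's strand.
CDH2 before its outermost start, chr18:28177131-28177380, minus strand: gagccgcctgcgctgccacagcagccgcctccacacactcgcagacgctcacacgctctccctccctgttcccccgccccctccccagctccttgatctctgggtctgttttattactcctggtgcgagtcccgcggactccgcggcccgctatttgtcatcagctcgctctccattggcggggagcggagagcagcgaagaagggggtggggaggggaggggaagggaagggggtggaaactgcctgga
CDH18 before its outermost start, chr5:20575714-20575963, minus strand: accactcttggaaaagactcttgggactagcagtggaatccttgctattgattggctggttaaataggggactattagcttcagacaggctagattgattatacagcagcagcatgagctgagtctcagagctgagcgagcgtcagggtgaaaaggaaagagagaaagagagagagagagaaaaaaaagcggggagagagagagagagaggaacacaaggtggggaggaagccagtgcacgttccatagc
CDH23 before its outermost start, chr10:71396670-71396919, plus strand: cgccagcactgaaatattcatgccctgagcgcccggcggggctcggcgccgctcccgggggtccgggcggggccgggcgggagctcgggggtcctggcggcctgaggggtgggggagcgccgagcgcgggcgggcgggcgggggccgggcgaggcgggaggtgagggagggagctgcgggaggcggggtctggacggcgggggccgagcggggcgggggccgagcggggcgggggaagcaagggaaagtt
CDH23 before its innermost start, chr10:71811633-71811882, plus strand: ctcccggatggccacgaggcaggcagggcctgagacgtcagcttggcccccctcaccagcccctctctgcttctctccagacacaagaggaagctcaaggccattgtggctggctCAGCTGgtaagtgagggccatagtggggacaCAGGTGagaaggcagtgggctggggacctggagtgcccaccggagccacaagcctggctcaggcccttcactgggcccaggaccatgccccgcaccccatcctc
The outermost windows of CDH2, CDH18 and CDH23 held no CANNTG. Of all 8 windows of these genes 4 held at least 1, as did 61.8% of all 35116 windows of this length. The innermost CDH23 window held 2, of which 1 is CAGGTG, the form (with its reverse complement CACCTG) that Snail and ZEB factors are known to bind. This window lies inside the gene. Unlike for the 3 outermost windows, the bases after its start were not found in a transcript of the gene in GENCODE release 29. The other windows with CANNTG are not printed. That form was present in 17.5% of all windows, and in 1 of the 8 windows of these 3 genes. These matches describe letters in the reference sequence and not binding.

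Most of the 10 cadherins were lower in resistant cells, and the sum of their levels per kilobase was 0.275 times that of wild-type cells. By fitted change, 6 of the 10 were lower by at least 2-fold and 0 higher by that much, where 14.3% of all tested genes were lower, 11.4% higher and 25.7% either by at least 2-fold. CDH1, CDH11, CDH13, CDH16, CDH17 and CDH23 made up the 6, CDH2 was lower by less than 2-fold, CDH6 differed least, and CDH3 and CDH18 were higher. The call of edgeR's test was met by 9 of the 10, 2 higher and 7 lower, where 45.3% of all genes were called, 22.1% higher and 23.2% lower. For all 10 the resistant libraries lay entirely on one side of the wild-type libraries, 2 above and 8 below, as they did for 73.6% of tested genes (37.2% above and 36.4% below). Since these values chose the genes, nothing is read from these counts.

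**Figure D1:**
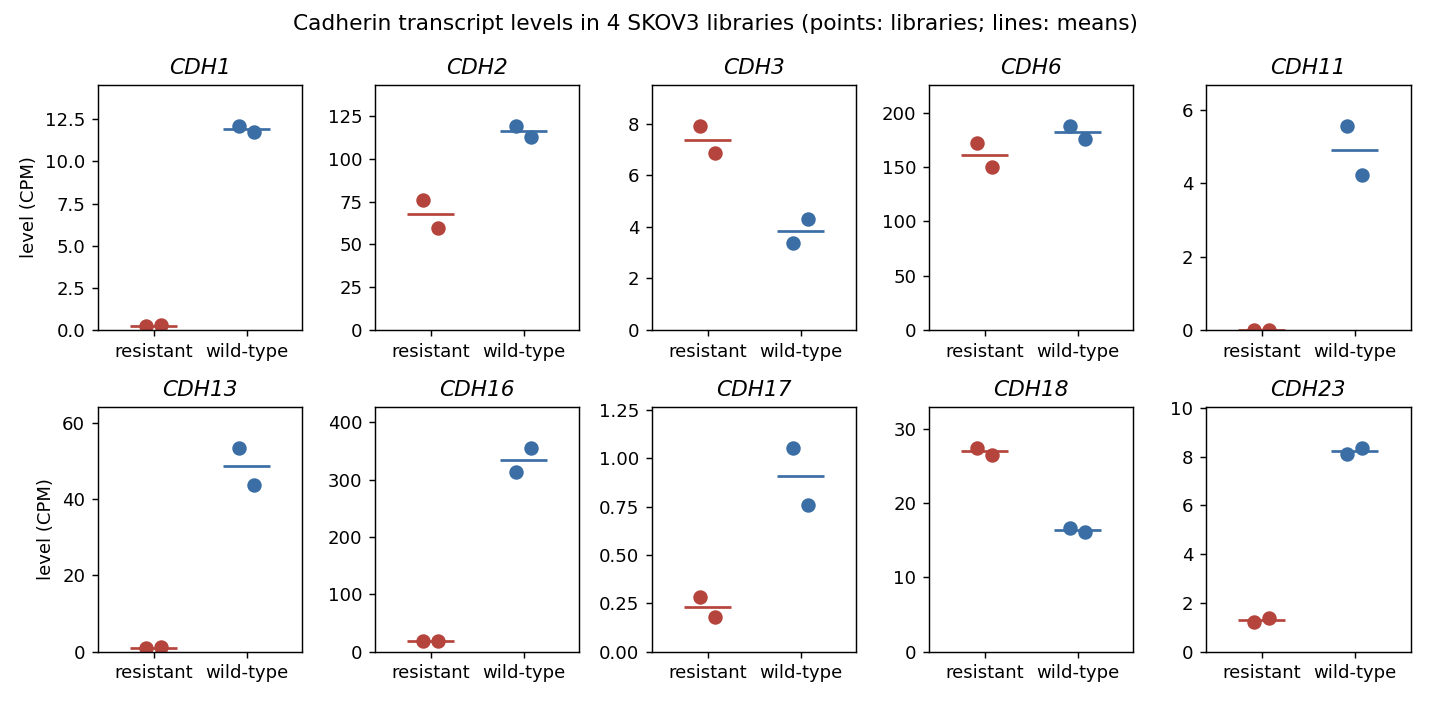
Level of each cadherin (vertical axis, CPM, linear from 0, with a scale of its own in each panel) in the 2 resistant and 2 wild-type libraries; points are libraries and lines are means. CDH1, CDH11, CDH13 and CDH16 lie near the bottom of their panels in resistant cells, CDH3 and CDH18 lie higher, and CDH6 differs least.

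Among the type I cadherins, CDH1 (ENSG00000039068, chr16:68737225-68835548, GRCh38) encodes E-cadherin, the main adhesion protein of epithelial junctions. Resistant libraries 1 and 2 held 0.240 and 0.277 CPM of it, which are 16 and 23 reads, against 12.1 and 11.8 CPM in wild-type libraries 1 and 2, which are 516 and 604 reads. Both resistant libraries were far below both wild-type libraries, and the fitted log2 change was -5.51 ± 0.25 (SE, n = 2 libraries a group). CDH3 (ENSG00000062038, chr16:68636189-68722616) encodes P-cadherin, found in basal layers of epithelia and in placenta, and ends 14.6 kb before the start of CDH1 on the same strand. It went the other way, with 7.92 and 6.86 CPM in resistant libraries and 3.38 and 4.30 CPM in wild-type libraries, a log2 change of 0.94 ± 0.21. CDH2 (ENSG00000170558, chr18:27950966-28177446), which encodes N-cadherin, had 75.8 and 59.9 CPM in resistant cells and 119 and 113 CPM in wild-type cells. N-cadherin transcripts were thus lower, not higher, where E-cadherin transcripts were lower, with a log2 change of -0.78 ± 0.13.

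Among the type II cadherins, CDH6 (ENSG00000113361, chr5:31193750-31329146) encodes K-cadherin of the fetal kidney and of several carcinomas. Its levels were 172 and 150 CPM in resistant cells and 188 and 176 CPM in wild-type cells, so the higher resistant library lay just below the lower wild-type library. The log2 change of CDH6 was -0.17 ± 0.12. CDH18 (ENSG00000145526, chr5:19472951-20575873), a type II cadherin known mainly from the nervous system, had 27.5 and 26.5 CPM in resistant cells and 16.6 and 16.1 CPM in wild-type cells. Its replicates were close in both groups, and its log2 change was 0.72 ± 0.14. CDH11 (ENSG00000140937, chr16:64943753-65126112), the OB-cadherin of osteoblasts and mesenchymal cells, had 0 reads in both resistant libraries, against 237 and 217 reads in wild-type libraries, or 5.57 and 4.23 CPM. With a floor of 3 reads over the resistant group CDH11 was at least 241-fold lower, a bound that covers counting error only.

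Of the members that lack a catenin-binding tail, CDH16 (ENSG00000166589, chr16:66908122-66918984) encodes the kidney-specific KSP-cadherin and had the highest level of the 10 in wild-type cells. It held 18.5 and 18.6 CPM in resistant libraries and 313 and 356 CPM in wild-type libraries, a log2 change of -4.17 ± 0.13. CDH17 (ENSG00000079112, on chromosome 8), the liver-intestine cadherin, was the member with the fewest reads in wild-type cells. It had 19 and 15 reads in resistant libraries and 45 and 39 reads in wild-type libraries, or 0.285 and 0.180 CPM and 1.06 and 0.760 CPM, and its log2 change of -1.96 ± 0.55 had the widest error among the members with reads in both groups. CDH13 (ENSG00000140945, chr16:82626803-83800640) encodes T-cadherin, the lipid-anchored member that binds adiponectin. Resistant cells had 0.960 and 1.13 CPM of CDH13 and wild-type cells had 53.5 and 43.6 CPM, a log2 change of -5.53 ± 0.19. CDH23 (ENSG00000107736, chr10:71396934-71815947) had 1.23 and 1.38 CPM in resistant cells and 8.10 and 8.38 CPM in wild-type cells, a log2 change of -2.65 ± 0.22. Genes on the opposite strand span 51.5% of the merged exon bases of CDH13 and 35.2% of those of CDH23. How reads in such stretches were counted is not given in the sources used here. Genes lying wholly inside other genes, such as VPS4A, NIP7 and THAP11, had 0 reads in every library, and CD68 had 1 read in all. AC026464.3, AC026464.4 and AC010542.3 have 100% of their exon bases in other genes, but 82.3%, 90.0% and 69.5% of their whole length. They had 145, 46 and 76 reads in resistant cells and 107, 24 and 40 in wild-type cells. Reads in shared stretches may thus not have been counted, and reads outside exons may have been, which was not tested. Where reads in covered stretches were left out, the levels of CDH13 and CDH23 are too low in both groups.

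Levels were also taken per kilobase of merged exons, to set genes of unlike length beside each other. These lengths include bases that other genes cover, 51.5% for CDH13, 35.2% for CDH23, 24.6% for CDH6 and 0% for CDH16. Of the whole gene length, other genes cover 15.3% for CDH13, 13.3% for CDH23, 54.6% for CDH6 and 0% for CDH16. Where reads in covered stretches were not counted, levels of covered genes are too low. If reads outside exons were counted, genes long outside their exons, such as CDH13 and CDH18, come out too high beside CDH16. The sum, the shares and the order could then differ, which was not computed. On this scale the 10 genes summed to 38.8 ± 3.79 CPM per kb in resistant cells and 141 ± 5.88 CPM per kb in wild-type cells (SD, n = 2 each). Much of that difference was CDH16, and the other 9 genes summed to 36.4 and 31.0 CPM per kb in resistant libraries and to 51.2 and 47.8 CPM per kb in wild-type libraries. CDH16 made up 12.2% and 14.1% of the sum in resistant libraries, against 62.6% and 67.0% in wild-type libraries. CDH2 made up 36.9% and 33.5% in resistant libraries and 17.6% and 15.8% in wild-type libraries, although its own level was lower. CDH6, with a similar level in both groups, made up 33.6% in each resistant library and 11.1% and 9.78% in wild-type libraries. The share of CDH18 was 13.6% and 15.1% in resistant libraries and 2.5% and 2.29% in wild-type libraries, and the share of CDH1 was 0.0937% and 0.124% against 1.43% and 1.31%.

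**Figure D2:**
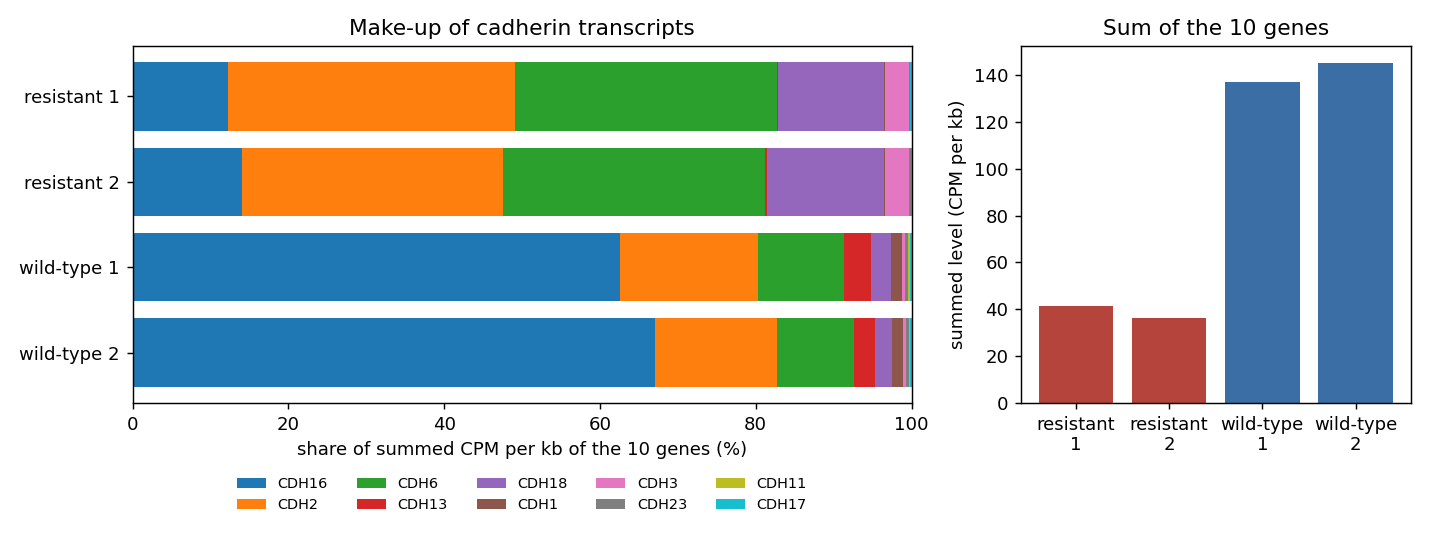
Left, share of each cadherin in the summed CPM per kb of the 10 genes (horizontal axis, %) for each library; right, that sum (vertical axis, CPM per kb, from 0). CDH16 fills 62.6% and 67.0% of the wild-type bars and 12.2% and 14.1% of the resistant bars, where CDH2, CDH6 and CDH18 take the larger part.

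The order of the levels per kb in resistant cells was CDH2, CDH6, CDH18, CDH16, CDH3, CDH13, CDH23, CDH17, CDH1 and CDH11. In that order the libraries of CDH2 and CDH6 overlapped, as did those of CDH23 and CDH17, and every other neighbour was separate. CDH2 had 13.7 ± 2.28 CPM per kb there and CDH6 13.0 ± 1.27, and with the longest transcript as the length CDH6 came first, at 19.0 ± 1.86 against 15.7 ± 2.60 for CDH2. In wild-type cells the order was CDH16, CDH2, CDH6, CDH13, CDH18, CDH1, CDH3, CDH23, CDH11 and CDH17, and on this scale no neighbouring genes overlapped. Neither order allows for bases that other genes cover or for reads outside exons. P-cadherin stood above E-cadherin in resistant cells, at 1.18 ± 0.121 CPM per kb for CDH3 and 0.0418 ± 0.00419 for CDH1. In wild-type cells the reverse held, with 0.616 ± 0.105 CPM per kb for CDH3 and 1.93 ± 0.0402 for CDH1.

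The genes most like CDH1 over the 4 libraries were ACCS, NCALD and PPP1R1A, among 14259 genes with a mean of at least 1 CPM. Likeness was the distance between log2 levels (CPM plus 0.5) centred on each gene's own mean, and it was 0.0709, 0.0772 and 0.109 for these genes. NCALD, which encodes the calcium sensor neurocalcin delta, had 0.555 and 0.601 CPM in resistant cells and 18.5 and 17.8 CPM in wild-type cells. The genes most like CDH3, the member with the largest increase, were AC069277.1, ZBTB39 and CD3EAP, at distances of 0.0491, 0.0620 and 0.0697. With 4 libraries in 2 groups, a small distance says little more than that the difference between the groups was alike once 0.5 CPM was added. The fitted log2 changes, which do not use that addition, were less alike. They were -11.9 for ACCS, with 0 CPM in both resistant libraries, -8.19 for PPP1R1A and -4.96 for NCALD, against -5.51 for CDH1.

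Most other type I and type II cadherins had few reads. Of 13 listed, 5 passed the filter, and 1 was higher and 2 lower in edgeR's test, where 22.1% and 23.2% of all genes were. CDH4, the R-cadherin of retina and brain, fell to 0.180 and 0.253 CPM in resistant cells, against 3.33 and 3.64 CPM in wild-type cells (log2 change -3.98 ± 0.36, edgeR adjusted p = 6.17e-06). CDH24, a type II cadherin that binds catenins, fell by 1.04 ± 0.17 on the log2 scale, with 12.5 and 13.7 CPM in resistant cells and 22.5 and 31.4 CPM in wild-type cells (edgeR adjusted p = 0.00061). The rise was CDH22, named after its values were seen, at 0.510 and 0.349 CPM in resistant cells and 0 and 0.0584 CPM in wild-type cells. It rests on 3 wild-type reads, and without resistant replicate 1 the call was lost (edgeR adjusted p = 0.0956, where the values over all settings ran from 0.00145 to 0.0956). Its log2 change of 3.68 ± 0.99 was 2.84 without wild-type replicate 1 and 7.78 without wild-type replicate 2. CDH12 and CDH26 did not pass, and CDH5, the cadherin of endothelium, had 10 reads in all in resistant cells and 5 in wild-type cells.

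The wider family was also measured. It holds the giant FAT and Dachsous cadherins, the Flamingo (CELSR) receptors of planar polarity, the calsyntenins and the cadherin-related genes. Of 16 tested, 9 fell and 1 rose, where 23.2% of all genes were called lower and 22.1% higher. With library totals alone 7 fell and 1 rose. The split also moved when a library was left out, though more genes fell than rose in every setting. The median log2 change was -0.44 where the median of all tested genes was 0.00318. CDHR1, the photoreceptor cadherin, had 0.0900 and 0.0601 CPM in resistant cells and 4.39 and 5.4 CPM in wild-type cells (log2 change -6.02 ± 0.39, edgeR adjusted p = 4.24e-07). FAT3 had 0.0750 and 0.168 CPM against 5.38 and 7.52 CPM in wild-type cells, and its log2 change was -5.66 ± 0.38, or -6.38 without resistant replicate 2. DCHS1, the ligand of FAT4, fell by 1.72 ± 0.21, FAT2 by 1.03 ± 0.26 and the calsyntenin CLSTN1 by 0.94 ± 0.13 on the log2 scale. The rise was FAT4 itself, by 0.69 ± 0.23, with 5.42 and 4.77 CPM in resistant cells and 2.70 and 3.58 CPM in wild-type cells. This call was lost without wild-type replicate 1 or resistant replicate 1 (edgeR adjusted p of 0.162 and 0.0855, where the values over all settings ran from 0.00966 to 0.162).

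The catenins tie classical cadherins to actin, and of 10 catenin genes tested 5 fell, 1 rose and 4 did not pass. Of 7 further linkers to actin 5 fell and 0 rose, which makes 10 of 17 lower and 1 higher, where 23.2% and 22.1% of all genes were, and the median log2 change was -0.60. Beta-catenin (CTNNB1) had 364 and 267 CPM in resistant cells and 336 and 302 CPM in wild-type cells, a log2 change of -0.01 ± 0.15 with an edgeR adjusted p of 0.946. Its relative plakoglobin (JUP), which also serves desmosomes, fell to 82.4 and 87.6 CPM in resistant cells, against 305 and 361 CPM in wild-type cells, by 1.97 ± 0.12 on the log2 scale. Alpha-catenin (CTNNA1), the link to actin, fell by 0.77 ± 0.12. The p120 group, which holds cadherins at the surface, changed both ways. CTNND1, p120-catenin itself, rose to 817 and 694 CPM in resistant cells, against 337 and 339 CPM in wild-type cells (log2 change 1.16 ± 0.12, edgeR adjusted p = 1.56e-05). Its relatives ARVCF, CTNND2 and PKP4 fell, with log2 changes of -2.89 ± 0.18, -2.33 ± 0.37 and -1.2 ± 0.17, though other genes cover 61.0% of the exon bases of PKP4. AJUBA was called lower at -1.49 ± 0.50, or -2.09 without resistant replicate 1, but 93.6% of its exon bases lie in other genes, and without wild-type replicate 2 or resistant replicate 2 its edgeR adjusted p was 0.157 or 0.162, where its values over all settings ran from 0.00157 to 0.162.

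Nectins, the immunoglobulin-type adhesion proteins that help cadherin junctions form, changed both ways. NECTIN4 rose by 1.65 ± 0.36 and NECTIN3 by 0.80 ± 0.14 on the log2 scale, while NECTIN2 fell by 0.93 ± 0.13 and NECTIN1 did not pass (-0.27 ± 0.14, edgeR adjusted p = 0.139). NECTIN3 had 204 and 154 CPM in resistant cells and 107 and 99.4 CPM in wild-type cells.

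Of the factors known to repress the E-cadherin gene, 11 were tested, and 5 rose and 3 fell, where 22.1% of all genes were called higher and 23.2% lower. Their median log2 change was 0.49. SNAI2 (Slug) rose to 150 and 165 CPM in resistant cells, against 20.4 and 19.8 CPM in wild-type cells, a log2 change of 2.97 ± 0.12 with an edgeR adjusted p of 1.46e-08. ZEB2 had 21.8 and 16.9 CPM in resistant cells and 5.99 and 4.15 CPM in wild-type cells (log2 change 1.93 ± 0.21), and TWIST1 had 14.9 and 23.0 CPM against 9.09 and 9.06 CPM (1.06 ± 0.20). SNAI1 rose by 1.02 ± 0.35, with 1.88 and 3.10 CPM in resistant cells and 0.963 and 1.48 CPM in wild-type cells, a call lost without resistant replicate 2 or wild-type replicate 1 (edgeR adjusted p of 0.282 and 0.0871, where its values over all settings ran from 0.00307 to 0.282). ZEB1 rose by 0.49 ± 0.12, with an edgeR adjusted p of 0.00547, which was 0.0549 without wild-type replicate 2, the highest of its values over all settings, of which the lowest was 0.000231. KLF8 went the other way, with 0.105 and 0.0962 CPM in resistant cells and 4.77 and 3.84 CPM in wild-type cells. GSC (goosecoid) fell by 1.85 ± 0.45, and TCF4, named after its values were seen, had 1 and 0 reads in resistant libraries and 36 and 42 reads in wild-type libraries.

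Of 12 tested transcription factors known to keep epithelial genes on, 0 rose, 5 fell and 7 were not called. Over all tested genes 22.1% were called higher and 23.2% lower, or 45.3% either way. The median log2 change of the 12 was -0.61. EHF, an epithelial ETS factor, had 1.43 and 0.565 CPM in resistant cells and 50.8 and 44.9 CPM in wild-type cells (log2 change -5.62 ± 0.31, or -6.39 without resistant replicate 1). OVOL2, a repressor of ZEB1, fell by 3.77 ± 0.35, and ELF3, another ETS factor, by 2.92 ± 0.13, though other genes cover 66.1% of the exon bases of ELF3. FOXA1, a pioneer factor, fell by 0.86 ± 0.21. KLF4 and KLF5 did not pass, at -0.02 ± 0.15 and 0.05 ± 0.11. GRHL2, an activator of CDH1, stayed below the filter with 2 reads in all in resistant cells and 18 in wild-type cells.

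The genes for processing, shedding and turnover of cadherins had a median log2 change of 0.03. Of 18 tested, 4 were called higher and 7 lower, where 22.1% and 23.2% of all genes were. The balance turned with library totals alone, to 7 higher and 5 lower, and without resistant replicate 2 it was 7 and 7. Without wild-type replicate 2 the called genes numbered 7 in place of 11. MMP7 (matrilysin), which can cut E-cadherin, fell to 8.84 and 7.25 CPM in resistant cells, against 168 and 153 CPM in wild-type cells, a log2 change of -4.32 ± 0.15. ADAM10, the main sheddase of E- and N-cadherin, had a log2 change of -0.05 ± 0.11 and an edgeR adjusted p of 0.761. The calpain CAPN1 fell by 1.09 ± 0.11, dynamin DNM2 by 0.63 ± 0.12 and ADAM15 by 0.59 ± 0.13 on the log2 scale. The gamma-secretase subunit APH1B rose by 1.08 ± 0.15. The other rises, named after their values were seen, were APH1A, the convertase FURIN, which removes the cadherin prodomain, and CBLL1 (Hakai), a ubiquitin ligase of E-cadherin, by 0.54 ± 0.11, 0.52 ± 0.12 and 0.50 ± 0.13. The call of FURIN was lost without wild-type replicate 1 and that of CBLL1 without wild-type replicate 2 (edgeR adjusted p of 0.0634 and 0.102, the highest over all settings, of which the lowest were 6.71e-05 and 0.000767).

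Of the tip-link and receptor partners of CDH23 and CDH13, 1 of 8 tested rose and 3 fell, a share near the 45.3% called over all genes. PCDH15, which joins CDH23 in the tip link, had 0.135 and 0.253 CPM in resistant cells and 4.25 and 3.39 CPM in wild-type cells (log2 change -4.26 ± 0.39, edgeR adjusted p = 6.41e-06). CIB2, a calcium-binding protein of hair cells, fell by 0.71 ± 0.17 on the log2 scale. The adiponectin receptor ADIPOR2 rose by 0.74 ± 0.12, while ADIPOR1 did not pass (0.22 ± 0.11, edgeR adjusted p = 0.13).

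**Figure D3:**
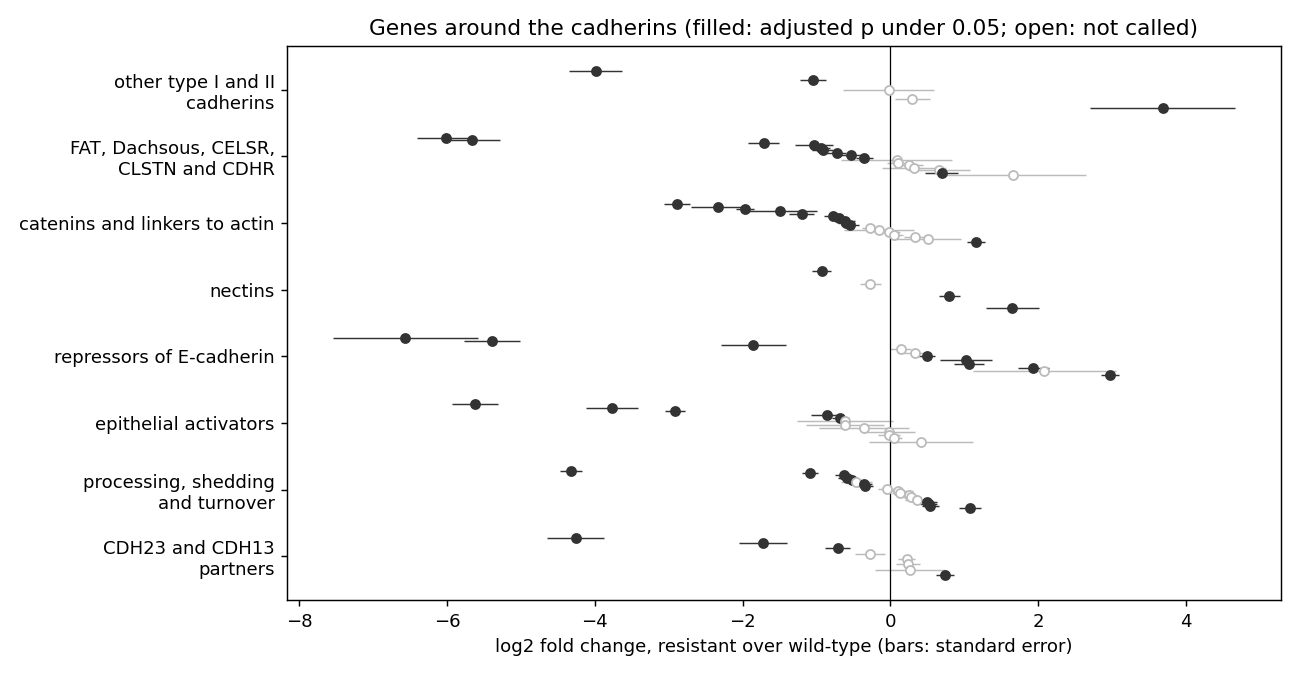
Log2 fold change of resistant over wild-type cells (horizontal axis; bars are standard errors) for the tested genes of 8 lists around the cadherins; filled points passed edgeR's test at an adjusted p under 0.05 and open points did not. SNAI2 is the rightmost filled point among the repressors of E-cadherin, and none of the 5 filled epithelial activators lies above 0.

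By position, 5 of the 10 genes lie on chromosome 16, namely CDH11, CDH16, CDH3, CDH1 and CDH13, and 2 on chromosome 5, CDH18 and CDH6. Their protein-coding neighbours, with a start within 1000 kb of a cadherin's start, numbered 139, of which 112 were tested, and 19 rose and 39 fell, where 22.1% and 23.2% of all genes did, with a median log2 change of -0.14. CDH11 and CDH18 have no such neighbour, and the neighbour of CDH2 is listed at 0 in every library. Within 500 kb, 15 of 61 tested neighbours rose and 20 fell.

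Around CDH1 and CDH3, 5 of 38 tested neighbours rose and 11 fell, where 22.1% and 23.2% of all genes did. The median log2 change of these neighbours was -0.14. The nearest ones were named after their values were seen: ZFP90, which starts 106 kb before CDH3, rose by 0.74 ± 0.11, and TANGO6, which starts 106 kb after the start of CDH1, fell by 0.46 ± 0.14. The call of TANGO6 was lost without wild-type replicate 1, wild-type replicate 2 or resistant replicate 2 (edgeR adjusted p of 0.115, 0.0571 and 0.0762, where its values over all settings ran from 0.00198 to 0.115). The widest difference among these neighbours was that of ESRP2, an epithelial splicing regulator 499 kb before CDH1, with 0.540 and 0.277 CPM in resistant cells and 18.3 and 16.7 CPM in wild-type cells (log2 change -5.45 ± 0.27, edgeR adjusted p = 6.46e-08). PARD6A, a polarity gene, fell by 2.99 ± 0.26, C16orf86 had a log2 change of -1.6 ± 0.36 and the immunoproteasome subunit PSMB10 one of -1.33 ± 0.18, while the hyaluronan synthase HAS3 rose by 1.30 ± 0.13. The window of CDH16 shares some of these neighbours. PARD6A and C16orf86 start 742 and 748 kb from its start and are counted there too.

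Around CDH16, 8 of 53 tested neighbours rose and 20 fell, with a median of -0.23, where 22.1% and 23.2% of all genes rose and fell. ZDHHC1 fell with a log2 change of -6.01 ± 0.43, or -7.21 without resistant replicate 2. The cortisol-inactivating enzyme HSD11B2 and the carboxylesterase CES4A had log2 changes of -4.33 ± 0.30 and -3.83 ± 0.59. CDH23 had 1 of 15 tested neighbours higher and 10 lower, with a median of -0.49, and ADAMTS14, DDIT4 and the nucleoside transporter SLC29A3 fell by 4.37 ± 0.23, 2.01 ± 0.18 and 1.86 ± 0.15. Other genes cover 51.8% of the exon bases of DDIT4. CDH17 had 4 of 12 tested neighbours higher and 0 lower, where 45.3% of all genes were called in either direction. Its nearest tested neighbour GEM, a small GTPase gene, had 16.5 and 21.2 CPM in resistant cells and 9.11 and 7.13 CPM in wild-type cells (log2 change 1.22 ± 0.19), and CCNE2 and DPY19L4 rose by 1.17 ± 0.19 and 0.87 ± 0.16. Other genes cover 50.2% of the exon bases of CCNE2.

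CDH13 and CDH6 had few neighbours. Near CDH13, PLCG2 fell by 1.72 ± 0.12, SDR42E1 had 0 reads in resistant cells and 112 in wild-type cells, at least 59.5-fold lower, and MPHOSPH6 rose by 0.40 ± 0.12, a call lost without either wild-type library (edgeR adjusted p of 0.160 and 0.0773, where its values over all settings ran from 0.00276 to 0.160). Near CDH6, PDZD2 fell by 2.57 ± 0.21, and C5orf22 rose by 0.50 ± 0.14, with an edgeR adjusted p of 0.0111, which was 0.120 without wild-type replicate 2, the highest over all settings, of which the lowest was 0.000522.

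**Figure D4:**
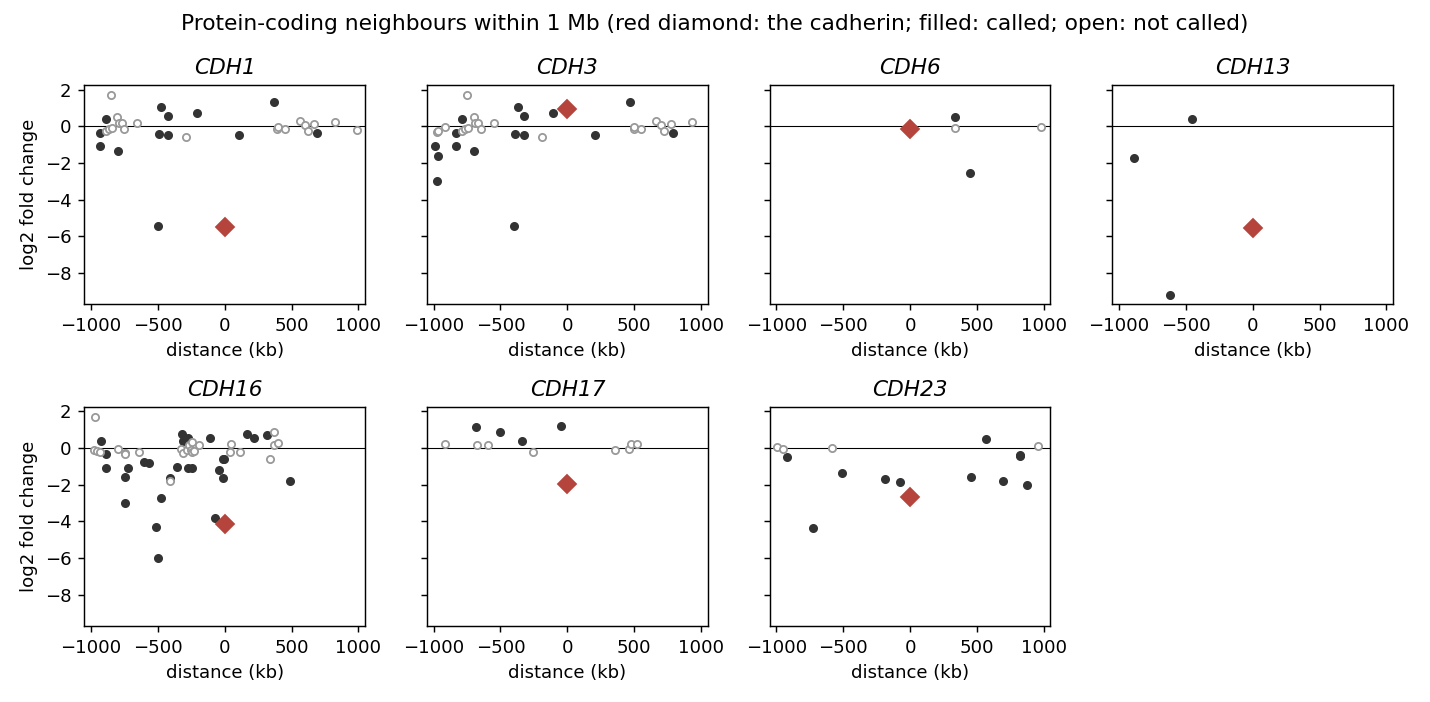
Log2 fold change of resistant over wild-type cells (vertical axis) of tested protein-coding neighbours against the distance of their start from the cadherin's start (horizontal axis, kb, along the cadherin's direction of transcription) for the 7 cadherins with tested neighbours. The red diamond is the cadherin and filled points passed edgeR's test; SDR42E1, with 0 reads in resistant cells, is drawn at its fitted value, which is not a bound, and ESRP2 is the lowest neighbour in the panels of CDH1 and CDH3.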

How the data were processed

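RNA of 4 SKOV3 libraries was read from a table of counts that the authors deposited as whole reads per gene, not normalized. Per the submitters' processing notes, reads were aligned by STAR 2.5.1a, the genome was GRCh38.p7, and HTSeq and DESeq were also used, in versions not stated. How reads were assigned to genes, and with which annotation, is not given in the sources used here. Normalized values, also deposited, were not used. GENCODE release 29 (GRCh38) gave positions and merged exon lengths, and 56927 of 65988 identifiers matched it. A gene at 0 in every library was treated as not measured, which held for 7 listed genes (CDH19, PVR, SNAI3, KLK7, CLRN1, THY1 and MS4A1). All of these but CDH19 and MS4A1 lie wholly inside other genes, so their 0 may stem from the counting.

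Differences in count between the groups were tested in R 4.3.3 by edgeR 4.0.16 (quasi-likelihood F test, TMM factors, filterByExpr with a minimum count of 10 and a minimum total of 15, group as the only term), with Benjamini-Hochberg adjustment over all tested genes. The standard error is the log2 change divided by the square root of F. The test was checked on simulated data. limma 3.58.1 (voom), DESeq2 1.42.0, other scalings and filters, a replicate block and leaving out each library were the alternatives. Tables and figures used Python 3.11.15, pandas 2.3.3 and matplotlib 3.10.9.

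The 10 members and the gene lists were chosen with earlier results of these data known. Named genes are the members, up to 5 called genes per list by size of change with a mean of at least 1 CPM in a group, up to 3 such neighbours per member, and 7 genes fixed for their role. Since the libraries carry no molecular identifiers, reads may be copies of one molecule, and the floor of 3 reads covers counting error only. Of the genes this rule names, 2 are not reported here.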

Additional observations from a re-analysis of the deposited data

How the results depend on the processing

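The sign of the log2 change of the 9 cadherins with reads in both groups was the same in all 98 recomputations, and 1 moved by more than the spread between replicates, CDH18 with library totals alone (0.81). The widest ranges were those of CDH17 (-2.31 to -1.65), CDH3 (0.79 to 1.13) and CDH2 (-0.95 to -0.61). With each library left out in turn, 6 to 7 cadherins differed by at least 2-fold and 6747 to 8181 genes were called. The count of called processing, shedding and turnover genes ran from 7 to 14 when a library was left out, and the cause was not tested. Neighbours within 500 kb gave 35 called genes of 61 tested in place of 58 of 112, with fewer genes in the window. Of the called ones 15 were higher and 20 lower, in place of 19 and 39, so the excess of lower calls was smaller there. The other 120 of 122 recomputed summary counts stayed within 1.5 times of the main count. With the replicate number as a block, 9646 genes were called in place of 8420, and the log2 change of CDH1 was -5.51. No total of called genes in a list moved by over 1.5 times. The higher calls went to 7 for processing, shedding and turnover genes (4 without the block) and to 2 for catenins and linkers (1 without it). For repressors of E-cadherin they went to 7 (5 without it). The lower calls went to 43 for neighbours (39 without it) and to 11 for catenins and linkers (10 without it). Over genes, the difference of replicate 1 and replicate 2 in resistant cells correlated with that in wild-type cells at 0.29, and with 2 replicate numbers this does not show that the numbers pair the libraries. Without length correction the share of CDH16 in the summed level was 6.55% in resistant cells and 46.0% in wild-type cells, and that of CDH6 was 56.6% in resistant cells and 25% in wild-type cells, above CDH2 in both. Depth limits CDH17, with 34 and 84 reads in resistant and wild-type cells, and CDH11, whose fold is a bound.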
